A study of Mus musculus and Rattus norvegicus with 18 samples.

Results

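The giants of the mouse heart were taken here as the genes whose longest listed open reading frame has more than 1500 codons. That frame was the unit of measurement, and it had to carry at least 20 ribosome footprints summed over the 4 footprint libraries. The rule found 752 frames among the longest frames of 17866 genes, which themselves come from a table of 26398 frames. A further 23 frames of over 1500 codons fell short of the footprint minimum, and 6 of those had 0 footprints. The label of giant protein rests on frame length alone. The median member had 1971 codons and the longest, titin (Ttn), had 33467. Members of at most 2000 codons numbered 390, those above 2000 and up to 3000 numbered 254 and those above 3000 numbered 108.

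Many of the largest proteins of a heart muscle cell are mechanical. Titin spans the contractile unit, the sarcomere, from its border to its middle and acts as a spring and a ruler, myomesin ties the thick filaments to each other, and the myosin heavy chains are the motors. Other giants are calcium and sodium channels, spectrins and other linkers under the membrane, laminins and other proteins of the matrix, receptors, ubiquitin ligases, microtubule motors and regulators of chromatin. A ribosome has to travel a long way to finish any of them, so their ribosome footprints and their RNA were read side by side.

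The study removed Mettl1, the catalytic subunit of the enzyme that places N7-methylguanosine on a set of tRNAs, from the mouse heart. Whole hearts of 4-week-old C57BL/6 mice carrying a conditional knockout (cKO) or serving as controls (Ctrl) gave 2 RNA-seq and 2 Ribo-seq libraries per genotype, the latter read from RNA pieces shielded by ribosomes. The rat cell line H9C2 (strain label Sprague-Dawley), derived from embryonic heart, gave 3 RNA-seq samples with normal Mettl1 (WT) and 3 of 1 edited line whose Mettl1 carries a CRISPR frameshift (null). The promoter that drove the recombinase, the deleted exon and the full genotype of the Ctrl mice are not given in the sources used here. No label says whether libraries of a group come from separate mice or cultures, so the p-values reflect library-to-library spread, which may be technical. Every heart library held RNA and footprints of the defining cardiomyocyte markers, none of which was at 0, while in H9C2 Myh6 reached at most 0.117 CPM and Ryr2 had 0 counts in all 6 libraries. Totals ran from 25171650 to 39675627 footprints per Ribo-seq library, from 15052652 to 16844783 counts per heart RNA library and from 90321496 to 94202947 counts per H9C2 library.

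The start regions of 4 members are shown because the results below turn on these genes: the myosin heavy chain genes Myh6 and Myh7, and the members with the smallest adjusted footprint p in each direction, Prune2, which rose, and Cmya5, which fell. Each sequence is the 250 bases before the RefSeq start site in GRCm38.p6, read in the direction of the gene. Capitals mark the TATA box TATAAA, the TEAD core CATTCC on either strand, or a CArG box. Myh6 lies at chr14:54966608-54966857 (minus strand), Myh7 at chr14:54994627-54994876 (minus strand, the first of 2 listed starts), Prune2 at chr19:16955868-16956117 (plus strand) and Cmya5 at chr13:93144725-93144974 (minus strand).
Myh6: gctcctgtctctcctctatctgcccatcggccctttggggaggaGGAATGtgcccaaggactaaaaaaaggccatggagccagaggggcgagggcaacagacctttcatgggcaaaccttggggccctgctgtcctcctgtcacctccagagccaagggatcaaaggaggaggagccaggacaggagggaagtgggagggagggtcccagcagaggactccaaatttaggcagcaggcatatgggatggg
Myh7: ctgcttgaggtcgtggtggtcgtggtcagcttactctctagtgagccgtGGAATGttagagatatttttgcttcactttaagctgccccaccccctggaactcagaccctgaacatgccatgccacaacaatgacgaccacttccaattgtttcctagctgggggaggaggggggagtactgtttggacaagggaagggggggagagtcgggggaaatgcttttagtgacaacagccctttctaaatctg
Prune2: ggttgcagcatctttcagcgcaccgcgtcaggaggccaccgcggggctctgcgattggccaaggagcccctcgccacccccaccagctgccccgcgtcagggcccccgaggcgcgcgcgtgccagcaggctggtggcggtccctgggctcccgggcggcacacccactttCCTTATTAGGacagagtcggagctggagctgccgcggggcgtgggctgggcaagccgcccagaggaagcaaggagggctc
Cmya5: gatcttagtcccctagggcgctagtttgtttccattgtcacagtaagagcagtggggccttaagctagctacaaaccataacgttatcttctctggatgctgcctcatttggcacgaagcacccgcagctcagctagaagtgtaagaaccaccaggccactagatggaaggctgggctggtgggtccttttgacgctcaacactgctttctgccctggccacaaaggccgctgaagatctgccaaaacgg
In Myh6 and Myh7 a CATTCC, the core of the element that TEAD factors bind, lay on the opposite strand. Prune2 held a CArG box, the element of serum response factor, and also GGGCGG and CAGCTG, which the capitals do not mark, and Cmya5 held none of the motifs searched. Over the 588 members with a promoter entry, GGGCGG, the core of a GC box, was present in 67.7%, against 35.4% of all 27025 genes with an entry. TATAAA was present in 7.31% of members against 14.3% of all genes, CATTCC in 13.6% against 14.4% and the CArG box in 2.04% against 1.62%. The E-box CAGCTG was present in 12.4% of members against 14.7% of all genes, the AP-1 element TGACTCA in 2.21% against 5.16% and the E-box CACGTG in 7.48% against 6.86%. Both strands were searched, and each motif was counted on its own whether or not it overlapped another. A gene with several listed starts was counted if any of them held the motif. The members had to carry heart footprints and the 27025 genes did not, so the 2 sets differ in more than frame length. Among the 17 members with an entry that rose in both footprints and RNA, 5 held CATTCC and 11 held GGGCGG. Among the 32 that fell in both, 5 and 20 did. These are matches of letters in a short window and no test was made of them.

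Ribosome footprints on the giants were spread very unevenly. Levels are given as CPM, counts scaled to a common library total with TMM factors. The median member had a mean of 18.9 footprint CPM over the 4 libraries, the lowest 0.162 and the highest, Myh6, 41760. Members under 1 CPM numbered 78 and members of at least 100 CPM numbered 87. Myh6, the fast cardiac myosin heavy chain, took 49.4% of all member footprints, and the 10 fullest members together took 60.5%. After Myh6 those were the calcium release channel gene Ryr2, the matrix genes Col4a1, Col4a2, Hspg2, Lamc1 and Ltbp4, and Tacc2, Nrap and Pde4dip.

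Per 1000 codons, which allows genes of different length to be compared, the order changed. Myh6 had 21548 footprint CPM per 1000 codons, Col4a1 of the type IV collagen of basement membranes 758, Nrap, an anchor of forming myofibrils, 493, and Tacc2, a protein of centrosomes and microtubules, 439. Ryr2 had 243. Titin, whose frame is the longest of all, had 14.6, so that Myh6 stood 1480 times above it on this scale. That is a value of footprints alone, and how reads matching several myosin genes were counted is not known. The median member had 9.35 footprint CPM per 1000 codons among the 720 tested in both assays, below the 14 of frames between 1000 and 1500 codons and the 17.2 of frames between 500 and 1000.

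As a group the giants were slightly lower in cKO hearts in both assays. The median log2 fold change of cKO against Ctrl was -0.06 in footprints (731 members tested) and -0.10 in RNA (729 tested), where all genes tested had medians of 0.00 and -0.00. In footprints 60.7% of tested members were below 0, and in RNA 70.2% were, against 49.4% and 50% of all genes tested. The shift was seen in each cKO library. Relative to the mean of Ctrl, the median of the members was -0.06 in cKO 1 and -0.04 in cKO 2 in footprints, with 0.01 and -0.01 in the Ctrl libraries. In RNA it was -0.12 in cKO 1 and -0.07 in cKO 2, with -0.00 and 0.00 in the Ctrl libraries, so cKO 1 lay further from Ctrl than cKO 2. In bulk hearts fewer cells of a type and less RNA per cell cannot be told apart, which holds for every value below.

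Within the giants, length made little further difference. The median RNA change was -0.10 for giants of at most 2000 codons, -0.11 for those up to 3000 and -0.11 for those above 3000. In footprints these medians were -0.06, -0.05 and -0.06. Across all genes with a listed frame, by contrast, the RNA median ran in steps from 0.13 at up to 100 codons through 0.05, 0.01, -0.02 and -0.08 to the giants. Spearman's rho between codons and RNA change was -0.20 over 13486 genes and -0.04 over the 729 giants. For footprints it was -0.09 over 13286 genes and -0.01 over 731 giants. These correlations run across genes of the same few libraries and are given as a description.

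**Figure D1:**
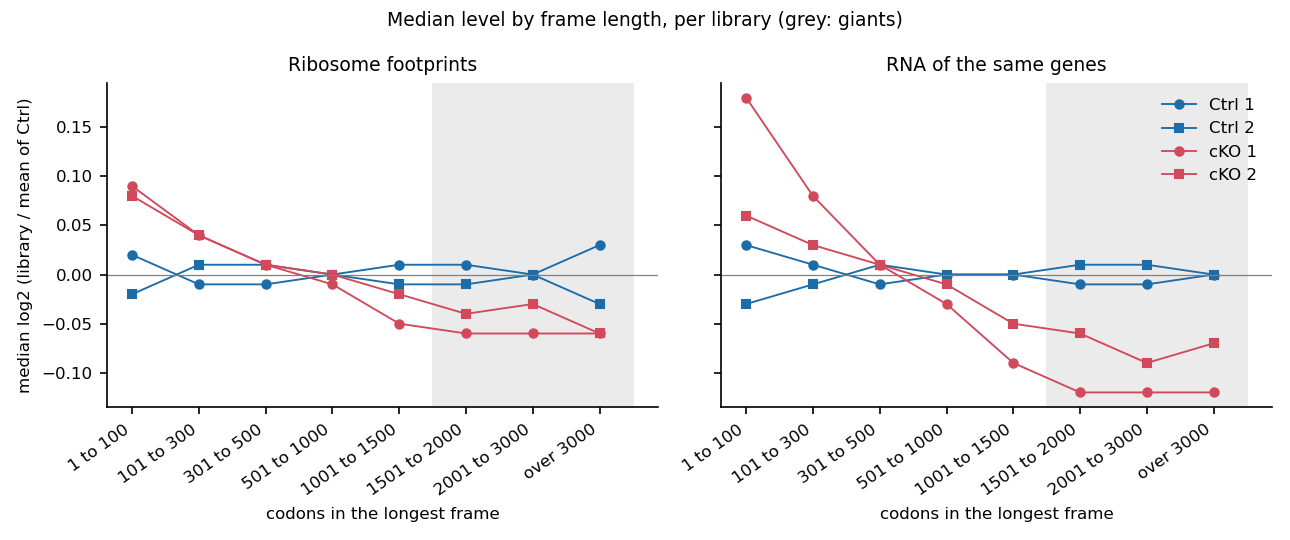
Median log2 level of each library against the mean of the Ctrl libraries (vertical axis) by codons in the longest frame (horizontal axis), for footprints (left) and RNA of the same genes (right), with the giants in grey. Both cKO libraries lie above 0 for the shortest frames and below 0 for the giants, where cKO 1 lies lower than cKO 2 in RNA.

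Most giants passed no test on their own. With edgeR's quasi-likelihood test, adjusted over all genes by Benjamini and Hochberg's method and read at 0.05, 38 of 731 giants rose in footprints (5.2%, where 9.34% of all genes tested rose) and 58 fell (7.93%, where 7.38% of all fell). In RNA 30 of 729 rose (4.12%, against 8.16% of all) and 89 fell (12.2%, against 6.26% of all). The RNA of giants was thus called lower more often, and higher less often, than the RNA of genes at large, as counts and without a test of the group. Ctrl and cKO libraries were fully apart for 333 giants that were lower in cKO RNA (45.7%, against 27.2% of all genes) and for 109 that were higher (15%, against 27.8%). In footprints 243 were apart and lower (33.2%, against 27.1%) and 135 apart and higher (18.5%, against 28.7%). When libraries were scaled by their totals instead of by TMM, which moved the median of all genes by 0.07 in footprints and 0.08 in RNA, the calls were 49 up and 34 down in footprints and 47 up and 49 down in RNA. Over all genes the calls with library totals were 1617 up and 658 down in footprints and 1769 and 506 in RNA. The distance of the members' median from that of all genes was unchanged by this scaling (-0.06 and -0.10). Leaving out cKO 1 gave 24 up and 28 down in footprints and 38 down in RNA, and leaving out cKO 2 gave 18 up and 32 down in footprints and 19 up in RNA.

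Footprint and RNA calls of the giants pointed the same way wherever both were made. Among members tested in both assays, 21 rose in both (5.36% of all genes did) and 38 fell in both (3.9% of all genes did), and 0 moved in opposite directions. A further 37 were called in footprints and not in RNA. In RNA and not in footprints, 51 were called lower and 7 higher. A call in 1 assay alone does not show that the assays differed for a member. The shares of all genes called in only 1 assay, or in opposite directions, were not counted. Over 720 members the log2 fold changes of the assays had a Spearman rho of 0.47 and a Pearson r of 0.57, a description across genes of the same hearts. A call was held most strictly where it passed without each library in turn, in DESeq2 and with library totals. By that measure 15 of 38 rises and 24 of 58 falls held in footprints, and 17 of 30 rises and 34 of 89 falls in RNA.

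**Figure D2:**
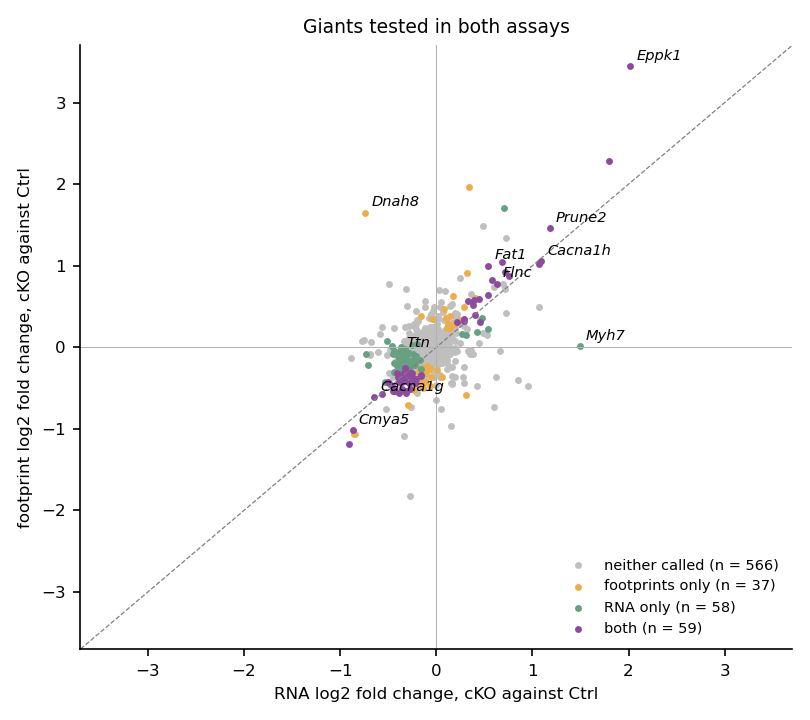
Footprint log2 fold change (vertical axis) against RNA log2 fold change (horizontal axis) of the 720 giants tested in both assays, coloured by which assay called them at an adjusted p of 0.05, with the line of equal change dashed. Most members called in both lie near the line, Myh7 lies far to its right (RNA 1.49, footprints 0.01) and Dnah8 above it (RNA -0.74, footprints 1.65).

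Among the 31 giants of the sarcomere and muscle cytoskeleton, Flnc and Nrap rose and Cmya5, Myom1 and the main motor Myh6 fell in footprints and RNA alike. Of 28 tested in footprints 2 rose (7.14%, against 9.34% of all genes) and 5 fell (17.9%, against 7.38%), with a median of -0.03. Of 25 tested in RNA 4 rose (16%, against 8.16%) and 7 fell (28%, against 6.26%), with a median of -0.08. Cmya5, myospryn, which binds desmin and titin, had 221 and 181 footprint CPM in Ctrl and 96 and 102 in cKO. Its RNA stood at 427 and 423 CPM in Ctrl and 235 and 230 in cKO. In both assays each cKO library lay far below each Ctrl library, with log2 fold changes of -1.02 (SE 0.10, adjusted p = 1.9e-06 in edgeR) in footprints and -0.87 (SE 0.05, adjusted p = 4.4e-08) in RNA.

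Flnc, filamin C, which crosslinks actin at the Z-disc border of the sarcomere, went the other way. Its footprints were 214 and 260 CPM in Ctrl and 397 and 419 in cKO (log2 fold change 0.78, SE 0.09, adjusted p = 1.9e-05 in edgeR). Its RNA was 281 and 274 CPM in Ctrl and 428 and 429 in cKO (0.63, SE 0.05, adjusted p = 1.5e-06). Nrap rose from 678 and 690 to 1002 and 966 footprint CPM (0.52, SE 0.07, adjusted p = 1.3e-04 in edgeR) and by 0.38 in RNA (SE 0.05, adjusted p = 1.0e-04). Neither gene's Ctrl and cKO libraries overlapped in either assay.

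Myom1, the M-band crosslinker myomesin, fell from 363 and 369 to 252 and 243 footprint CPM (-0.56, SE 0.08, adjusted p = 7.6e-05 in edgeR). Its RNA fell by 0.31 on the log2 scale (SE 0.05, adjusted p = 2.9e-04). Myh6 footprints were 49672 and 43697 CPM in Ctrl and 36825 and 36847 in cKO (-0.34, SE 0.08, adjusted p = 0.00544 in edgeR). Its RNA change of -0.16 (SE 0.04, adjusted p = 0.00805) was not called in DESeq2 (-0.16, adjusted p = 0.12) or with library totals (-0.08, adjusted p = 0.172). Beside these falls, the summed level of the 10 cardiomyocyte markers, which include Myh6 and Ryr2, was 57722 to 58298 RNA CPM in Ctrl and 53541 to 53656 in cKO. In footprints it was 176002 to 180932 in Ctrl and 160101 to 161145 in cKO. Myh6 is itself a large part of these sums, with 22422 and 22186 RNA CPM in Ctrl and 19621 and 20304 in cKO. The sums therefore do not stand apart from its fall. Of the 10 markers, 5 were called lower in RNA (50%, against 6.26% of all genes) and 3 in footprints (30%, against 7.38%). Tnni3 had 0.15 in RNA and 0.00 in footprints, and Myl3 had 0.03 in footprints. The part of cardiomyocyte content in the falls was not tested.

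Titin fell in RNA and was not called in footprints. Its RNA was 2120 and 2090 CPM in Ctrl and 1525 and 1718 in cKO, so the genotypes did not overlap (-0.38, SE 0.05, adjusted p = 2.4e-04 in edgeR). Its footprints were 517 and 480 CPM in Ctrl and 467 and 485 in cKO, which overlapped (-0.07, SE 0.08, adjusted p = 0.641). The change of its footprint to RNA ratio, tested in 1 model over both assays, was 0.30 (SE 0.10) and did not pass (adjusted p = 0.342 in edgeR). Dmd, dystrophin, which joins the cytoskeleton to the membrane, was chosen after its values were seen: it fell in RNA (-0.44, SE 0.08, adjusted p = 0.00159) and had -0.30 in footprints (SE 0.12, adjusted p = 0.0999).

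**Figure D3:**
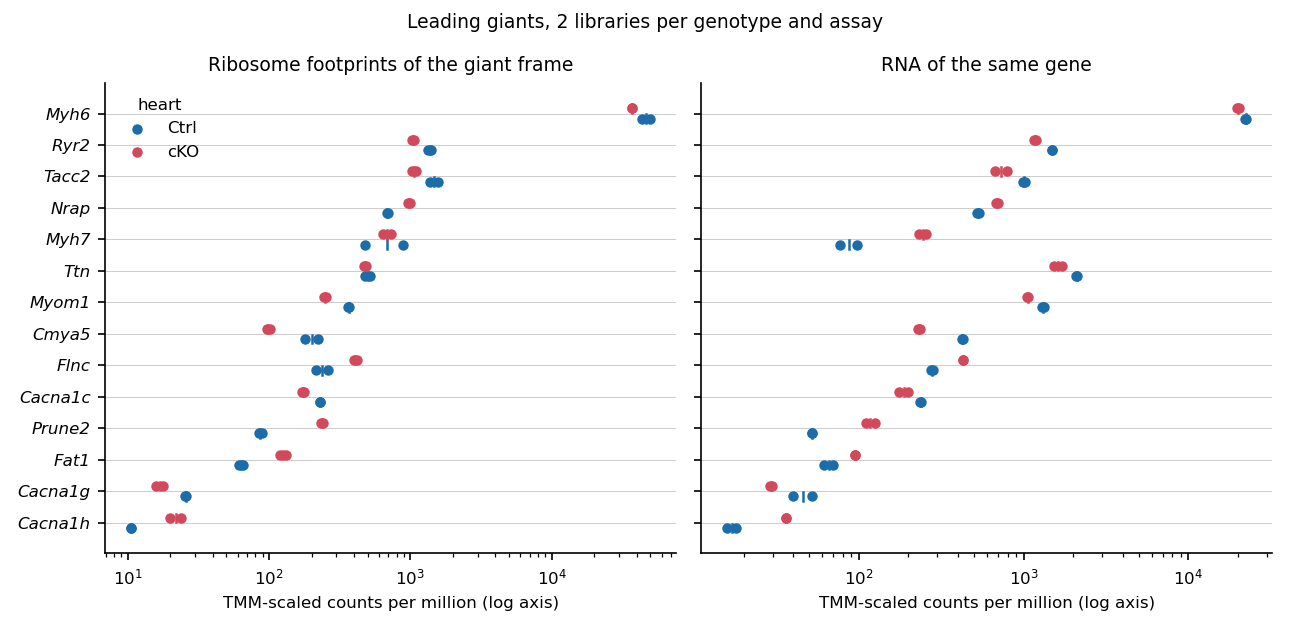
Level of 14 giants in each heart library in TMM-scaled CPM on a log axis, footprints on the left and RNA on the right, with Ctrl in blue, cKO in red and a short bar at the mean of 2 libraries. Prune2, Flnc, Fat1, Nrap and Cacna1h lie higher in cKO in both panels, Cmya5, Myom1, Ryr2 and Cacna1g lower, and the Myh7 libraries overlap only in footprints.

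Myh7, the slow myosin heavy chain of the fetal heart, was called lower in its footprint to RNA ratio. The ratio test called 0 of 720 members up (0.0561% of all genes tested) and 1 down (0.0481% of all). The RNA of Myh7 was 97.4 and 76.8 CPM in Ctrl and 257 and 233 in cKO (1.49, SE 0.09, adjusted p = 3.5e-08 in edgeR). Its footprints were 883 and 474 CPM in Ctrl and 726 and 636 in cKO, so both cKO libraries lay between the Ctrl ones (0.01, SE 0.18, adjusted p = 0.99). The footprint to RNA ratio was 9.07 and 6.18 in the Ctrl libraries and 2.83 and 2.72 in the cKO libraries, paired by number only to form the ratio. The change of -1.50 (SE 0.26) had an adjusted p of 0.0364 in edgeR and was not called in DESeq2 (0.129), without cKO 1 (0.55) or without cKO 2 (0.308). The 2 Ctrl footprint libraries decided the footprint value: it was 0.52 (adjusted p = 0.00368) without Ctrl 1 and -0.38 (adjusted p = 0.0151) without Ctrl 2.

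The myosin heavy chain genes are near-identical in sequence over long stretches, and the sources used here do not say how reads that match several of them were counted, so their counts are uncertain. Several chains of skeletal muscle had footprints with almost no RNA. Myh4 had 305 footprints summed over 4 libraries and 1 RNA count, Myh1 had 28 and 3, Myh2 had 38 and 3, Myh3 had 45 and 3 and Myh8 had 55 and 9. The non-muscle and smooth muscle chains did not show this: in Ctrl the footprint to RNA ratio was 0.679 for Myh9, 0.461 for Myh10 and 0.583 for Myh11. Myh7 footprints amounted to 1.78% and 1.09% of Myh6 footprints in the Ctrl libraries and 1.97% and 1.73% in the cKO libraries, and Myh7 RNA to 0.435% and 0.346% of Myh6 RNA in Ctrl and 1.31% and 1.15% in cKO. Whether footprints of Myh6 were counted on Myh7 was not tested.

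Of the 37 calcium and ion channel giants, 6 of 35 tested fell in footprints (17.1%, against 7.38% of all genes) and 2 rose (5.71%, against 9.34%), with a median of -0.15. In RNA 5 of 35 fell (14.3%, against 6.26%) and 3 rose (8.57%, against 8.16%), with a median of -0.11. The T-type calcium channel genes, which serve pacemaking and the fetal heart, split. Cacna1h footprints were 10.6 and 10.6 CPM in Ctrl and 24 and 20 in cKO (1.06, SE 0.13, adjusted p = 2.6e-05 in edgeR), and its RNA was 18 and 15.9 against 36.2 and 36.2 CPM (1.09, SE 0.10, adjusted p = 3.0e-06). Cacna1g footprints were 25.9 and 25.4 CPM in Ctrl and 15.8 and 17.9 in cKO (-0.61, SE 0.11, adjusted p = 0.0012 in edgeR), and its RNA fell by 0.65 (SE 0.11, adjusted p = 8.4e-04). In both genes and both assays the genotypes did not overlap.

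Ryr2, the channel that releases calcium from the sarcoplasmic reticulum, had 1409 and 1336 footprint CPM in Ctrl and 1067 and 1020 in cKO (-0.40, SE 0.07, adjusted p = 0.00151 in edgeR). Cacna1c, the L-type channel that triggers this release, was named after its values were seen. It fell by 0.40 in footprints (SE 0.08, adjusted p = 0.00186) and by 0.34 in RNA (SE 0.06, adjusted p = 0.00219). The footprint to RNA ratio of both moved by -0.07 (adjusted p = 0.851 and 0.876). Scn10a, a sodium channel gene best known from sensory neurons, passed in footprints (-1.06, adjusted p = 0.0215 in edgeR) at 1.17 to 3.28 CPM, and was not called without Ctrl 1 (adjusted p = 0.115), Ctrl 2 (0.0511) or cKO 2 (0.139).

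Smaller proteins that work with these giants moved in both directions. Of 24 listed partners of the calcium channel giants, 6 rose (25%, against 9.34% of all genes) and 5 fell (20.8%, against 7.38%) in footprints. In RNA 5 of them rose (20.8%, against 8.16%) and 7 fell (29.2%, against 6.26%). Triadin (Trdn) and Hrc of the release complex fell in footprints by 0.52 and 0.43 (adjusted p = 2.8e-04 and 5.4e-04 in edgeR), and the L-type channel subunit gene Cacna2d1 fell by 0.55 (adjusted p = 1.4e-04). S100a1, a calcium sensor that binds the release channel, rose by 0.59 (adjusted p = 8.6e-04). Of 35 listed smaller sarcomere partners, 13 of 34 tested rose (38.2%) and 5 fell (14.7%) in footprints, with a median of 0.04. In RNA 15 rose (42.9%) and 6 fell (17.1%), with a median of 0.13. Among these the titin-linked Trim54, a muscle ubiquitin ligase, rose by 0.91 in footprints (adjusted p = 8.7e-07), and Fhl2, which docks metabolic enzymes on titin, fell by 0.81 (adjusted p = 2.4e-06).

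Of the 51 linkers, spectrins and cell junction giants, 12 fell in RNA (23.5%, against 6.26% of all genes) and 2 rose (3.92%, against 8.16%). Of 49 tested in footprints 7 fell (14.3%, against 7.38%) and 2 rose (4.08%, against 9.34%). The medians were -0.14 in RNA and -0.05 in footprints. The footprint to RNA ratio was called in 0 of 49. Map1a, a microtubule-associated protein best known from neurons, had 9.45 and 9.22 footprint CPM in Ctrl and 18.4 and 14.5 in cKO (0.82, SE 0.14, adjusted p = 7.1e-04 in edgeR). Sptb, the erythrocyte and muscle beta-spectrin, fell from 55.9 and 52.7 to 37.4 and 38.7 CPM (-0.51, SE 0.09, adjusted p = 8.9e-04), and Pcnt, pericentrin of the centrosome, from 125 and 117 to 93.4 and 84.8 CPM (-0.44, SE 0.09, adjusted p = 0.00183). The RNA call of Pcnt (-0.28, adjusted p = 0.0178) was lost without Ctrl 2 (adjusted p = 0.19), cKO 1 (0.0854) or cKO 2 (0.0621). Desmoplakin (Dsp), the desmosome plaque protein, was named after its values were seen and fell by 0.39 in footprints (SE 0.08, adjusted p = 0.00185). Beside Sptb, the summed red blood cell markers were at 1462 to 1596 RNA CPM in Ctrl and 1600 to 2504 in cKO. Of the 8, 3 were called higher in RNA (37.5%, against 8.16% of all genes). The rise lay mostly in cKO 1: Hbb-bs RNA was 907 and 969 CPM in Ctrl, 1594 in cKO 1 and 966 in cKO 2. The part of blood in the Sptb value was not tested.

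Of the longest linkers, Macf1 and Dst (7355 and 7669 codons), which tie actin to microtubules, neither gave a firm footprint call. Macf1 fell in RNA from 258 and 260 to 199 and 215 CPM (-0.33, SE 0.06, adjusted p = 0.0014 in edgeR). Its footprint value of -0.25 (adjusted p = 0.0489) was not called without Ctrl 1 (adjusted p = 0.173), cKO 1 (0.294) or cKO 2 (0.199). Dst had 71.9 and 61.9 footprint CPM in Ctrl and 67.3 and 70.1 in cKO, which overlapped (0.04, adjusted p = 0.833). Its RNA value of -0.20 (adjusted p = 0.0319) was not called without Ctrl 1 (adjusted p = 0.179) or cKO 1 (0.252).

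Most of the 92 chromatin and transcription giants lay below 0 in both assays. In RNA 16 of 92 fell (17.4%, against 6.26% of all genes) and 0 rose (against 8.16%). The RNA median was -0.15, and 83.7% lay below 0. In footprints 4 of 91 rose (4.4%, against 9.34%) and 4 fell (4.4%, against 7.38%). The footprint median was -0.08, and 68.1% lay below 0. Chd6, a chromatin remodeller, fell in both assays, from 63.1 and 64 to 45.3 and 42.1 footprint CPM (-0.54, SE 0.09, adjusted p = 5.0e-04 in edgeR) and from 104 and 118 to 79.9 and 82.1 RNA CPM (-0.45, SE 0.07, adjusted p = 5.2e-04). Zfp462, a zinc finger protein, rose in footprints from 3.74 and 3.74 to 6.99 and 7.06 CPM (0.91, SE 0.18, adjusted p = 0.00224), with 0.32 in RNA (adjusted p = 0.226). Brwd3 fell in RNA (-0.73, adjusted p = 0.0328), a call lost without Ctrl 1 (adjusted p = 0.179), without cKO 2 (0.19), in DESeq2 and with library totals. The ratio of the list had a median change of 0.07, with 0 of 91 members called.

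**Figure D4:**
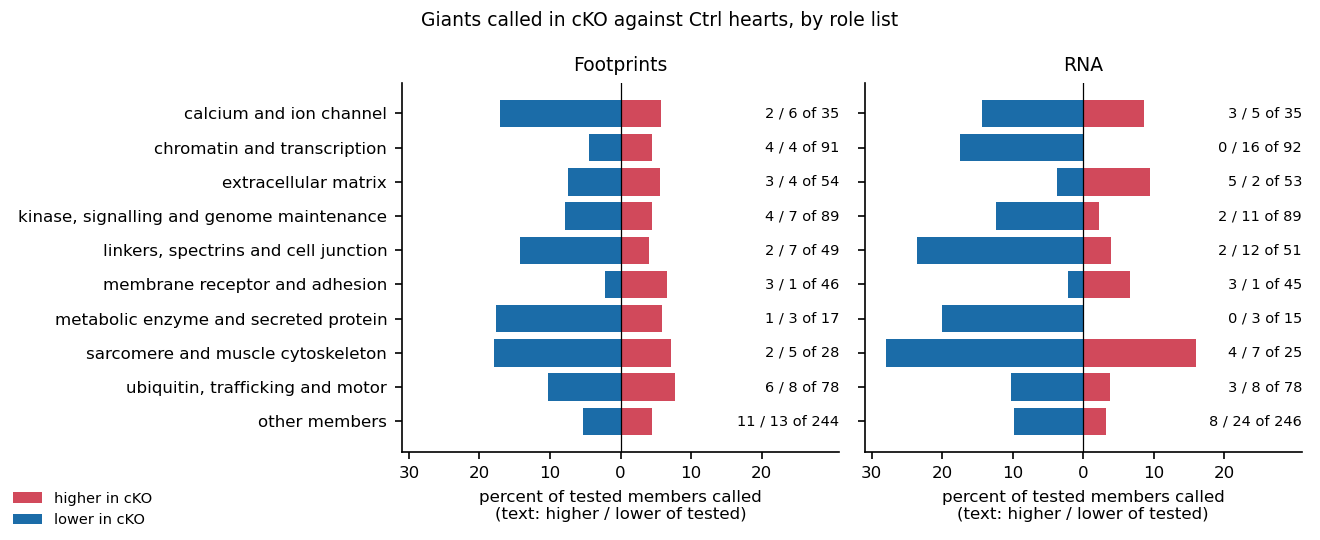
Percent of tested giants called lower (blue, to the left) and higher (red, to the right) in cKO against Ctrl hearts for each role list, footprints on the left and RNA on the right, with the counts printed beside each bar. The chromatin list has 0 members called higher in RNA and 16 lower, while matrix and receptor giants show more rises than falls in RNA. Of all genes tested in RNA, 8.16% were called higher and 6.26% lower.

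The 55 extracellular matrix giants and the 47 membrane receptor and adhesion giants did not share the RNA shift. Of 53 matrix giants tested in RNA 5 rose (9.43%, against 8.16% of all genes) and 2 fell (3.77%, against 6.26%), with a median of -0.02. Of 54 in footprints 3 rose (5.56%, against 9.34%) and 4 fell (7.41%, against 7.38%), with a median of -0.08. Lama5, a laminin chain of basement membranes, had 112 and 141 footprint CPM in Ctrl and 87.3 and 83.7 in cKO (-0.56, SE 0.10, adjusted p = 0.001 in edgeR), and its RNA fell by 0.39 (SE 0.06, adjusted p = 6.8e-04). Adamts7, a metalloprotease of the matrix, fell in footprints from 13.4 and 14.3 to 8.51 and 8.43 CPM (-0.71, SE 0.13, adjusted p = 0.00149). Its RNA libraries overlapped (-0.29, adjusted p = 0.161). Adamts20 rose in RNA from 0.515 and 1.08 to 2.83 and 3.75 CPM (2.02, SE 0.36, adjusted p = 0.00137) and was too low in footprints to be tested.

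Among the most translated matrix giants few calls stood. Col4a1 had 1290 and 1368 footprint CPM in Ctrl and 1135 and 1268 in cKO, which did not overlap yet did not pass (-0.15, SE 0.08, adjusted p = 0.245 in edgeR). Lamb2 was called (-0.23, adjusted p = 0.0431), but not when any 1 library was left out (adjusted p from 0.0615 to 0.287) nor with library totals (-0.16). Frem2, of the Fraser complex that anchors epithelia, rose from 133 and 127 to 158 and 174 footprint CPM (0.35, SE 0.08, adjusted p = 0.00788), and was not called without cKO 2 (adjusted p = 0.163). Hspg2, perlecan, was called in RNA (-0.17, adjusted p = 0.0297) and not without Ctrl 2 (0.213) or cKO 1 (0.149), while Col4a2, Lamc1 and Ltbp4 were called in neither assay. The 8 fibroblast markers summed to 6200 to 7017 footprint CPM in Ctrl and 6385 to 6801 in cKO, which overlapped. The 8 endothelial markers summed to 1106 to 1118 in Ctrl and 954 to 1063 in cKO. The 8 smooth muscle and pericyte markers summed to 1538 to 1621 in Ctrl and 1237 to 1350 in cKO. Both sums were lower in cKO, but members of the lists disagreed. Of 7 endothelial markers tested, Cdh5 was called lower and Vwf higher (14.3% each, against 7.38% and 9.34% of all genes). Of the 8 smooth muscle and pericyte markers only Acta2 was called (12.5%, against 7.38%). Acta2 alone went from 923 and 1066 to 676 and 808 CPM. The part of these cell types in the matrix values was not tested.

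Fat1 led the receptor and adhesion giants. In footprints 3 of 46 tested rose (6.52%, against 9.34% of all genes) and 1 fell (2.17%, against 7.38%). In RNA 3 of 45 rose (6.67%, against 8.16%) and 1 fell (2.22%, against 6.26%). Fat1, a giant protocadherin, had 60.9 and 65.3 footprint CPM in Ctrl and 132 and 120 in cKO, a 2-fold rise (SE 0.09 on the log2 scale, adjusted p = 1.0e-06 in edgeR). Its RNA was 61.6 and 69.7 against 95.3 and 95.2 CPM (0.54, SE 0.07, adjusted p = 1.3e-04). Its ratio change of 0.45 (SE 0.12) had an adjusted p of 0.191. Plxna1, a semaphorin receptor, rose by 0.59 in footprints and 0.44 in RNA (adjusted p = 0.00105 and 9.0e-04), and Sorl1, a sorting receptor, by 0.64 and 0.54 (adjusted p = 2.9e-04 and 0.00128). Lrp2, megalin, was called lower in footprints (-0.59, adjusted p = 0.0458) at 4.38 to 8.02 CPM, and not without Ctrl 1 (adjusted p = 0.296), cKO 1 (0.0755) or cKO 2 (0.185).

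Of the 80 ubiquitin, trafficking and motor giants, Prune2 gave the smallest adjusted p of any giant in footprints. Prune2, a protein with a BCH domain studied mainly in nerve cells, stood at 88.9 and 84.5 footprint CPM in Ctrl and 242 and 235 in cKO, a 2.75-fold rise (1.46, SE 0.08, adjusted p = 4.1e-09 in edgeR). Its RNA was 52 and 51.9 CPM in Ctrl and 110 and 125 in cKO (1.18, SE 0.08, adjusted p = 6.2e-08). Kif1b, a kinesin that carries mitochondria and vesicles, rose from 45.7 and 46.7 to 69.2 and 68.1 footprint CPM (0.57, SE 0.09, adjusted p = 2.5e-04). Ubr2, a ubiquitin ligase of the N-degron pathway, fell from 192 and 169 to 128 and 122 (-0.53, SE 0.09, adjusted p = 4.5e-04), with RNA at -0.31 (adjusted p = 0.0021). In the list as a whole 6 of 78 rose (7.69%, against 9.34% of all genes) and 8 fell (10.3%, against 7.38%) in footprints. In RNA 3 rose (3.85%, against 8.16%) and 8 fell (10.3%, against 6.26%).

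Dnah8, a dynein heavy chain of cilia and flagella, showed the widest gap between the assays among members tested in both. Its footprints were 0.924 and 0.643 CPM in Ctrl and 1.87 and 3.01 in cKO (1.65, SE 0.37, adjusted p = 0.00526 in edgeR), while its RNA was 1.22 and 1.34 against 0.926 and 0.582 CPM (-0.74, SE 0.41, adjusted p = 0.266). The ratio change of 2.38 (SE 0.57) had an adjusted p of 0.139. The footprint call was lost without Ctrl 2 (adjusted p = 0.0651) or cKO 2 (0.0758), and all values lie near 1 CPM. Kif26b rose in RNA by 0.68 (adjusted p = 0.00237), and its footprint call (1.04, adjusted p = 0.0146) was lost without Ctrl 1 (adjusted p = 0.053), Ctrl 2 (0.107) or cKO 2 (0.25).

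Of the 89 kinase, signalling and genome maintenance giants, 4 rose (4.49%, against 9.34% of all genes) and 7 fell (7.87%, against 7.38%) in footprints. In RNA 2 rose (2.25%, against 8.16%) and 11 fell (12.4%, against 6.26%). The medians were -0.03 in footprints and -0.12 in RNA. Tacc2 had 1562 and 1374 footprint CPM in Ctrl and 1019 and 1101 in cKO (-0.47, SE 0.08, adjusted p = 8.2e-04 in edgeR), and its RNA fell by 0.46 (SE 0.07, adjusted p = 2.1e-04). Polq, the DNA polymerase of end joining, rose from 3.23 and 2.3 to 5.6 and 5.49 footprint CPM (1.02, SE 0.22, adjusted p = 0.00441) and by 1.07 in RNA (adjusted p = 0.00645). Prrc2a, an RNA-binding protein, rose in footprints from 77.3 and 80.3 to 106 and 112 CPM (0.47, SE 0.08, adjusted p = 0.001), with 0.08 in RNA (adjusted p = 0.439) and a ratio change of 0.37 (adjusted p = 0.227).

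Of the 17 metabolic giants 3 fell in footprints (17.6%, against 7.38% of all genes) and 1 rose (5.88%, against 9.34%), with a median of -0.04. Of 15 tested in RNA 3 fell (20%, against 6.26%) and 0 rose (against 8.16%), with a median of -0.02. Acacb, the mitochondrial form of acetyl-CoA carboxylase that restrains fatty acid oxidation, led the list. Its footprints were 320 and 307 CPM in Ctrl and 226 and 241 in cKO (-0.42, SE 0.08, adjusted p = 0.00122 in edgeR), and its RNA 461 and 450 against 340 and 373 CPM (-0.36, SE 0.06, adjusted p = 5.7e-04). Eprs, the synthetase that charges tRNAs for glutamate and proline, fell in RNA from 71.3 and 66.5 to 54.4 and 54.8 CPM (-0.34, SE 0.07, adjusted p = 0.00491). Its footprint call (-0.32, adjusted p = 0.0162) was lost without Ctrl 1 (adjusted p = 0.0709), cKO 1 (0.0511) or cKO 2 (0.213). Among the 253 members in no list, 11 of 244 rose (4.51%, against 9.34% of all genes) and 13 fell (5.33%, against 7.38%) in footprints. In RNA 8 of 246 rose (3.25%, against 8.16%) and 24 fell (9.76%, against 6.26%). Resf1, a silencer of endogenous retroviruses, rose in footprints from 12.6 and 10.3 to 19.9 and 21.9 CPM (0.88, SE 0.13, adjusted p = 1.8e-04) and by 0.76 in RNA (adjusted p = 0.00247). N4bp2 fell in RNA from 18 and 18.3 to 11.9 and 12.7 CPM (-0.56, SE 0.11, adjusted p = 0.00334), and its footprint call (-0.57, adjusted p = 0.029) was lost without Ctrl 2 (0.163), cKO 1 (0.176) or cKO 2 (0.0644). Muc16, a mucin and the longest frame after titin, had 7.1 and 5.06 footprint CPM in Ctrl and 5.38 and 6.21 in cKO, which overlapped (-0.06, adjusted p = 0.889).

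The ratio of footprints to RNA of the giants barely moved as a group. Its median change was 0.03 over 720 members, against -0.02 over 12475 genes, and 44.6% of the members were below 0 where 53.1% of all genes were. At an unadjusted p under 0.05, 38 members were higher and 28 lower, 9.17% of members against 9.62% of all genes, and DESeq2 called 0 members. By length the median change was 0.02 for giants of at most 2000 codons, 0.04 for those up to 3000 and 0.06 for those above 3000, and it was -0.04 for frames between 100 and 300 codons. Libraries matched by number alone, which the labels do not tie to each other, were apart upward for 190 members (26.4%, against 20.3% of all genes) and downward for 120 (16.7%, against 21.7%).

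In Ctrl hearts the giants carried fewer footprints per RNA count at the median than frames between 100 and 1000 codons, and more than the shortest frames. The median ratio was 0.684 in the 720 members tested in both assays, with quartiles of 0.401 and 1.08, and 0.721 in cKO. It was 0.516 for frames of up to 100 codons, 0.869 between 100 and 300, 0.872 between 300 and 500, 0.81 between 500 and 1000 and 0.706 between 1000 and 1500, so the giants lay close to the class just below them. The level of footprints followed the level of RNA across 749 members with a Spearman rho of 0.85 in Ctrl.

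How the frames of a gene were listed went along with how many footprints its giant frame carried. Of the 752 members 492 had 1 frame in the table and 260 had more. For 38 members another frame began or ended at the same base as the giant one. With at least 5 RNA CPM in Ctrl, the median footprint to RNA ratio was 0.754 for 365 members with 1 frame, 0.558 for 215 with more frames and no shared end, and 0.209 for 35 with a shared end. A ratio under 0.05 was found in 10 of these 35 members, in 1 of the 365 and in 4 of the 215.

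**Figure D5:**
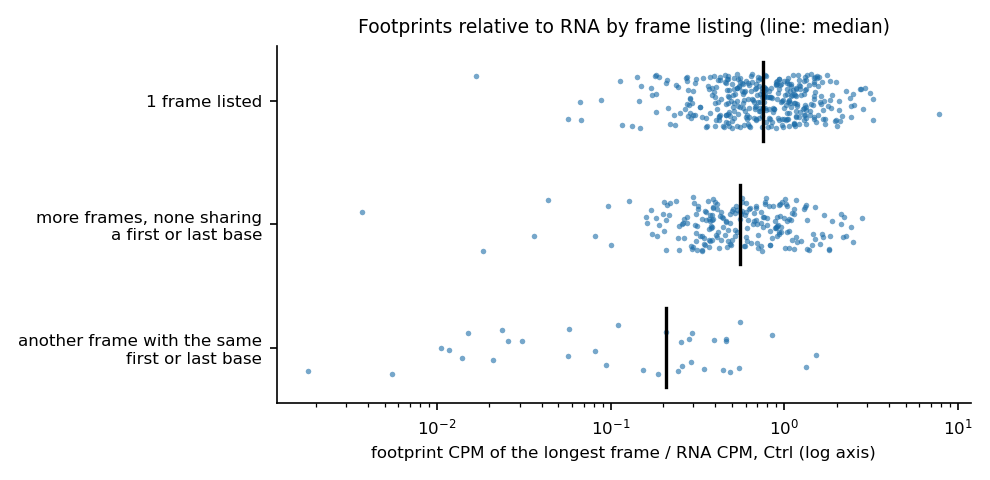
Footprint CPM of the giant frame divided by RNA CPM in Ctrl (horizontal log axis), one point per giant with at least 5 RNA CPM, in 3 rows by how the frames of the gene are listed, with a line at the median. The row with a shared first or last base lies to the left, with a median of 0.209 against 0.754 for genes with 1 frame.

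Xirp2, a cardiac actin-binding protein of the intercalated disc, was the lowest. It had 123 RNA CPM in Ctrl and only 65 footprints in all 4 libraries on its frame of 3784 codons, a ratio of 0.00182. A second frame of 3283 codons shares an end with it and had 0 footprints. Its RNA rose by 0.70 (SE 0.07, adjusted p = 4.1e-06 in edgeR), while its footprint counts are uncertain. Itsn1 (0.00548), Lrba (0.0106), Abcc9 (0.0117) and Son (0.0258) likewise share an end with another frame, while Dock9 (0.00368), Sptbn1 (0.0185) and Lmo7 (0.0364) have further frames without a shared end. The sources used here do not say how footprints that fall on several frames were counted, and the part of this in these low values was not tested. For members of this kind the level of footprints is uncertain. The longest frame was not the fullest frame of its gene in 5 members (Abcc9, Ank1, Cux1, Itsn1 and Srcap). Pooled over all members, the longest frames held 99.304% of the footprints of their genes. Of the members 492 have only 1 frame, among them Myh6 with 49.4% of member footprints. The pooled figure thus says little about the 260 with more frames.

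The share of all footprints that fell on the giants was lower in cKO, and most of the difference lay on Myh6. The share was 8.83% and 8.38% in Ctrl and 7.71% and 7.83% in cKO, a difference of -0.835 percentage points. The genotypes did not overlap, and the exact two-sided permutation p was 0.333, the smallest that 2 libraries against 2 allow. Myh6 alone took 4.7% and 4.22% of footprints in Ctrl and 3.68% and 3.71% in cKO, a difference of -0.769. Without it, an alternative chosen after the data were seen, the other giants took 4.14% and 4.16% in Ctrl and 4.04% and 4.12% in cKO, a difference of -0.0662. In RNA the giants took 8.06% and 8.04% in Ctrl and 7.67% and 7.93% in cKO (exact p = 0.333), a difference of -0.244 that was -0.38 without cKO 2 and -0.12 without cKO 1. Titin alone took 0.206% and 0.203% of RNA counts in Ctrl and 0.157% and 0.177% in cKO, and 0.0476% ± 0.00178 and 0.0477% ± 0.00152 of footprints (SD, n = 2 each).

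At the edge of the rule, values of both signs lay on either side. Just above 1500 codons, Abcc10, Mapkbp1 and Arhgap5 had footprint changes of -0.01, 0.01 and -0.31, and just below, Fam208a, Arhgap35 and Dennd4b had -0.31, 0.35 and -0.41. At the footprint minimum Adgrv1 (20), Sptbn4 (22) and Nin (23 footprints) lay inside and Sipa1l1 (18), Unc80 (17) and Pcsk5 (17) outside, and none of these 6 was tested in footprints. In all, 731 of the 752 members passed the filter on low footprints and 729 that on low RNA.

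In H9C2 cells, the rat genes of the same symbols showed another pattern. Of the 752 members 687 matched a rat symbol, a match by name and not by a table of orthologues, and 618 were tested. In null against WT cells 88 rose (14.2%, against 13.6% of all genes) and 42 fell (6.8%, against 11.5%), with a median of 0.06. The median depended on the WT libraries, whose own medians against the WT mean were 0.01, -0.19 and 0.18, while the null libraries had 0.17, 0.01 and 0.02. It was -0.04 without WT 2 (80 up, 83 down) and 0.16 without WT 3 (166 up, 37 down). Calls also fell to 56 up without null 1, and to 24 down without WT 1 and 20 down without null 2 or null 3. The libraries were apart for 130 genes higher in null cells (21%, against 22.8%) and 46 lower (7.44%, against 19.8%).

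Sarcomere giants were called higher in the null cells in 8 of 21 tested genes (38.1%, against 13.6% of all genes). They were called lower in 2 (9.52%, against 11.5%). The null samples are of 1 edited line, so a trait of that line cannot be told apart from the loss of Mettl1. Neb and Mylk started from low levels in WT cells. Neb, the thin filament ruler nebulin, rose from 2.89, 1.96 and 3.31 CPM in WT to 9.69, 9.22 and 10.1 in null cells (1.83, SE 0.18, adjusted p = 1.9e-04 in edgeR). Mylk, the kinase that activates smooth muscle myosin, rose from 7.72 ± 0.634 to 65.7 ± 3.50 CPM (SD, n = 3 each; 3.09, SE 0.08, adjusted p = 2.8e-07). Flnc fell from 1137 ± 146 to 813 ± 64.8 CPM (-0.48, SE 0.10, adjusted p = 0.00688), and in none of these 3 genes did the WT and null libraries overlap. Matrix giants rose in 14 of 38 tested genes (36.8%) and fell in 4 (10.5%). Among them Col4a1 was at 0.47 (adjusted p = 0.00122 in edgeR) and Ltbp4, a latent TGF-beta binding protein, at -0.58 (adjusted p = 1.4e-04). Chromatin giants moved least, with 2 of 88 higher (2.27%) and 4 lower (4.55%).

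Of the 89 giants that fell in heart RNA, 7 fell and 12 rose in H9C2, 59 were tested there and not called, 6 had no matching rat gene and 5 were not tested. These counts lie near the shares of all giants called in H9C2, 6.8% down and 14.2% up. Of the 30 that rose in heart RNA, 6 rose and 3 fell in H9C2. Another 13 were tested there and not called, 3 had no matching rat gene and 5 were not tested. The counts for these 30 rest on few genes, and no test of them as a group was made. Map1a rose in both (0.58 in heart and 0.59 in H9C2), and Eprs fell in both (-0.34 and -0.34). The calls of Map1a and Eprs in RNA held without each library in turn in both systems.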

How the data were processed

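Footprints per open reading frame (heart Ribo-seq) and reads per gene (heart RNA-seq, H9C2) were deposited by the authors as whole-number counts with no normalization, judged from the values. The submitters' processing notes name cutadapt, STAR, HISAT2, featureCounts, StringTie, DESeq2, Bowtie, Bowtie2, GRCm38 and Rnor_6.0. The sources used here do not tell which tool made which table, the strand setting or how reads matching several places or frames were handled. Columns of the H9C2 table carry annotation file names. The tRNA table was not used.

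The longest frame of each gene was taken from the last number of the frame name. Each assay was fitted apart over all its genes with edgeR 4.0.16 (R 4.3.3): quasi-likelihood test, TMM factors, filterByExpr, Benjamini-Hochberg adjustment, threshold 0.05. The ratio was the interaction of genotype and assay over 8 heart libraries. SE is that of the log2 fold change. The CPM shown are TMM-scaled, and shares use library totals. Libraries were grouped by their labels and matched to columns by name. Symbols came from a gene name table (all 752 members matched), and frame ends lay within the RefSeq gene span in GRCm38.p6 for 748. Alternatives were relative-log-expression factors, library totals, DESeq2 1.42.0, other filters, a replicate block, each replicate left out, a further 1.5-fold threshold, other length and footprint minimums, the fullest frame and all frames summed. The fits were tested on simulated counts whose spread was set in advance. A 2-fold rise was called in 100% of changed genes in footprints, 96% in RNA, 84% in the ratio and 100% in H9C2. A 1.3-fold rise was called in 6%, 10%, 4% and 46%. Changes of this small size were thus mostly missed in the heart fits of simulated data.

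The members, role lists and marker lists were chosen with earlier results of these data known. Named members were the 10 with most footprints, the 10 densest per 1000 codons, the 5 longest, up to 6 per direction and measure with the largest change among called members of at least 1 CPM whose genotypes did not overlap, and the 3 with the smallest footprint p of each role list, leaving out predicted gene models. Other members were named after their values were seen, and not every member the rule named is described. Some genes that the rule named are not reported here.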

Additional observations from a re-analysis of the deposited data

Results flagged for a closer look

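Of the giants named by rule, 7 had RNA calls of opposite signs in H9C2 null against WT cells and in cKO against Ctrl hearts. In each, every null library lay on one side of WT and every cKO library on the other side of Ctrl. Giants not named by rule were not searched for this list. Over all giants, and without regard to overlap of libraries, 12 fell in heart RNA and rose in H9C2. Another 3 rose in heart RNA and fell in H9C2. The log2 fold changes in H9C2 and heart were -1.45 and 2.02 for Adamts20, 0.57 and -0.65 for Cacna1g, -0.48 and 0.63 for Flnc, 0.53 and -0.39 for Lama5, 0.28 and -0.33 for Macf1, 0.76 and -0.31 for Myom1 and 0.30 and -0.46 for Tacc2. The difference between heart and cell line was not tested, and the systems differ in species, tissue and table. The H9C2 call of Macf1 was lost without WT 1, WT 2, null 1, null 2 or null 3 (adjusted p from 0.0641 to 0.174), and that of Lama5 without null 1 (0.0523). The H9C2 calls of the other 5 held without each library in turn.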

How the results depend on the processing

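The medians of the giants stayed below 0 in both heart assays under all alternatives run, except in footprints with library totals (0.01, and 34 down). In RNA library totals gave 47 up, 49 down and a median of -0.02. A further 1.5-fold threshold left 18 up and 6 down in footprints, 13 and 5 in RNA and 49 and 11 in H9C2. The counts at this threshold were not made over all genes. Over 2000 codons there were 20 up and 30 down in footprints, 16 and 42 in RNA and 0 down in the ratio. Over 1000 codons there were 84 and 146 in footprints and 72 and 177 in RNA. DESeq2 gave 18 up and 40 down in RNA and 0 down in the ratio. Over all genes it gave 623 up and 457 down in RNA and 11 up and 33 down in the ratio. Without 1 library at a time, footprints had 18 to 32 up, 28 to 62 down and a median of -0.07 to -0.05; RNA 19 to 30 up, 38 to 103 down and -0.13 to -0.08; the ratio 0 up, 0 to 1 down and 0.01 to 0.06; H9C2 56 to 166 up, 20 to 83 down and -0.04 to 0.16. Footprints on Myh7 turned to -0.38 without Ctrl 2 and were 0.52 without Ctrl 1. The share difference ranged from -1.06 to -0.61 in footprints and from -0.38 to -0.12 in RNA. It was -0.015 in footprints and -0.094 in RNA (chosen after the data were seen) without the 10 fullest members, -0.0662 in footprints without Myh6, and -0.704 in RNA with mitochondrially encoded genes left out of the total. The cause of these changes was not tested, beyond fewer or more genes and samples entering the count.

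Libraries of the same number did not deviate together across genotypes (correlation of deviations -0.037 in footprints and 0.009 in RNA). In H9C2 these correlations were 0.007, 0.048 and -0.053. So few libraries cannot show whether the numbers pair them. Footprint and RNA libraries of the same genotype and number had a correlation of 0.174 in Ctrl and 0.096 in cKO. With the replicate number as a block there were 46 up and 77 down in footprints, 37 and 134 in RNA and 84 and 35 in H9C2. In the ratio the block joined footprint and RNA libraries of the same genotype and number, with 4 up and 3 down. Over all genes the block gave 1480 up and 1255 down in footprints and 1455 and 1290 in RNA. It gave 1748 and 1399 of all genes in H9C2 and 44 and 83 in the ratio. With 2 libraries per heart group, the 78 members under 1 footprint CPM are measured least well.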
